A study of Mus musculus with 6 samples.

Results

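The genes described here are 35 genes of myelin and of the oligodendrocyte lineage, the glial cells that wrap axons in myelin. They were read from 6 one-colour arrays hybridised with total RNA of the subventricular zone (SVZ), the wall of the lateral ventricle where neural stem cells of the adult brain reside. Adult male C57BL/6 mice had either sham surgery or MCAO, occlusion of the middle cerebral artery, which models ischaemic stroke. The SVZ was taken 48 h later, on the lesioned side in the MCAO group, with 3 arrays per group numbered 1 to 3. No transgene and no drug is named for either group. A gene was counted as measured where the array's annotation gave a probe set its symbol and no other, and the brightest such probe set stood for it. By this rule 33 of the 35 genes were measured, among 18193 genes in all. Trf, which encodes the iron carrier transferrin, and Neu4, which encodes a sialidase, had no such probe set.

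Oligodendrocytes form from precursor cells that carry the PDGF receptor encoded by Pdgfra. The precursors pass through a committed stage marked by Gpr17, Enpp6 and Bcas1, and then switch on the genes of the myelin sheath under transcription factors such as Sox10 and Myrf. The SVZ borders the striatum, with its bundles of myelinated fibres, and at its upper end the corpus callosum. Some of its progenitors give rise to oligodendrocytes. In bulk tissue, fewer cells of a type and less RNA per cell cannot be told apart.

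Between any pair of arrays, Pearson's r over genes lay within 0.975 to 0.992. Both arrays numbered 1 scored above 0 and the other 4 below 0 on a first principal component with 40.8% of the variance. The 27 control probe sets for spiked poly-A RNA averaged 7.46 log2 on MCAO 1 and 7.71 on sham 1, against 8.33 to 8.83 on the other arrays. Markers of the labelled region, 9 of neuroblasts and 8 of ependymal cells, were all measured and averaged 8.71 to 8.99 and 7.77 to 8.41 log2 over the sham arrays. The values carry no detection call. In sham, 29 of the 33 lineage genes, 9 of 9 neuroblast markers and 6 of 8 ependymal markers lay above the median gene, a statement on brightness of probes and not on transcript abundance.

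For 31 of the 33 myelin and oligodendrocyte genes the MCAO and sham values overlapped, and the 2 that did not overlap were higher in MCAO. Klk6, a secreted serine protease of oligodendrocytes, averaged 2.72-fold higher in MCAO, and Apod, a lipid-carrying lipocalin, 1.74-fold higher. Over the 33 genes, 12 were higher and 21 lower in MCAO, with a median difference of −0.03 log2, beside −0.00643 for all genes. In the limma fit of all genes, with p-values adjusted by Benjamini-Hochberg, 0 of the 33 passed an adjusted p of 0.05, a threshold that 1.14% of all genes passed. By direction, 1.12% of all genes rose and 0.0165% fell. The smallest difference that passed among all genes was 0.41 log2 in size, and 2 of the 33 differed by that much, so this fit could hardly call the smaller differences of the others. Its SE had a median of 0.22 log2 over the 33, beside 0.0941 over all genes. At an unadjusted p under 0.05 there were 2, Klk6 and Apod, beside 8.78% of all genes. The same 2 were the only genes of the 33 whose 3 MCAO values lay above all 3 sham values, as did 8.40% of all genes. None had all 3 MCAO values below sham, as 5.36% of all genes did. The median sign rested on single arrays: the median was 0.13 log2 without MCAO 2, 0.10 without sham 3 and −0.17 without MCAO 3.

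**Figure D1:**
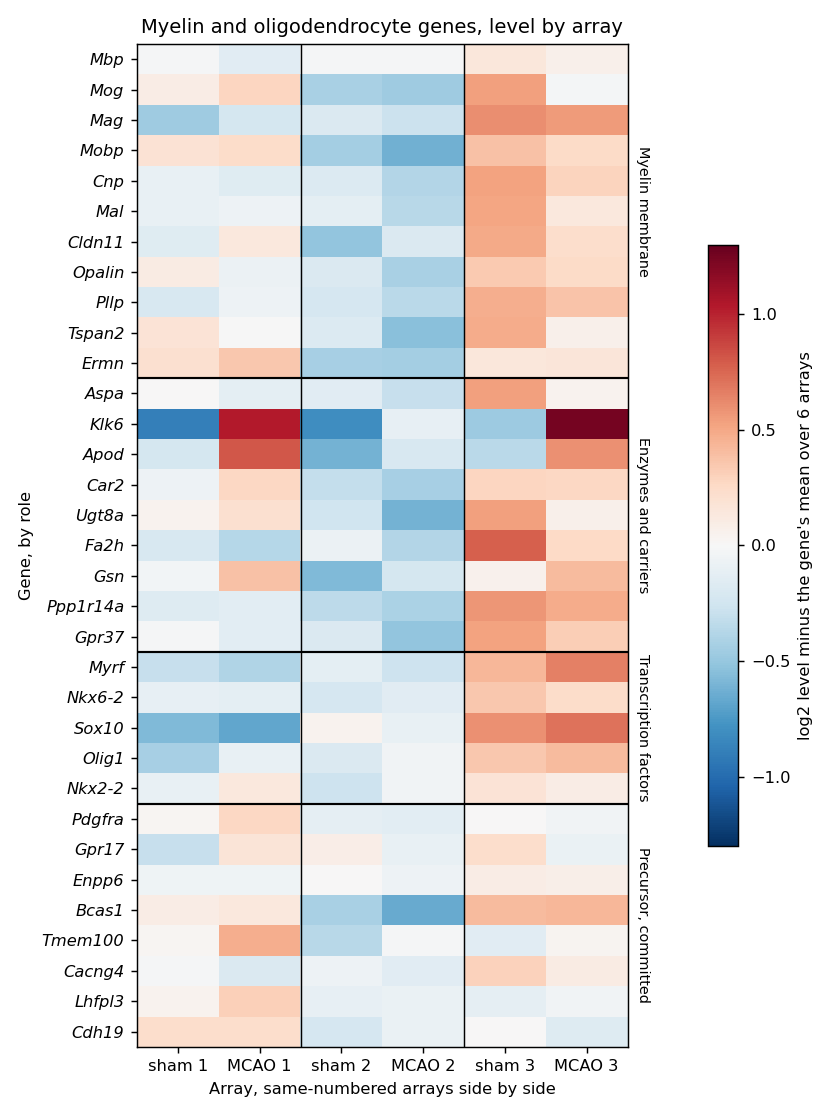
Log2 level of each of the 33 genes on each array (columns, same-numbered arrays side by side) as the difference from the gene's own mean over 6 arrays, coloured from blue (lower) to red (higher); rows are grouped by role. For most genes the colours change between sample numbers rather than between sham and MCAO, with Klk6 and Apod as exceptions.

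Arrays with the same number deviated together, so MCAO was also compared within numbers, with the sample number as a block in the fit. In that fit 6 of the 33 passed, where 6.14% of all genes did. Those that rose were Klk6, Apod, the actin-severing gelsolin gene Gsn and the membrane protein gene Tmem100, 4 of 33 beside 4.83% of all genes. Those that fell were the tetraspanin gene Tspan2 and the fatty acid hydroxylase gene Fa2h, 2 of 33 beside 1.31%. On the values as deposited, without quantile normalization, the block fit called 3 rises and 0 falls: Tspan2 and Fa2h did not pass there (adjusted p = 0.171 and 0.181 by limma). Within all 3 pairs 6 genes were higher in MCAO, as were 20.0% of all genes, and 7 were lower, as were 19.8%. The block left 2 residual degrees of freedom per gene, to which limma added 8.17 from the spread of all genes. Block fits with a pair left out kept fewer residual degrees of freedom and leaned more on that spread. In a single run on simulated data the share of false calls in the block fit lay above its threshold.

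**Figure D2:**
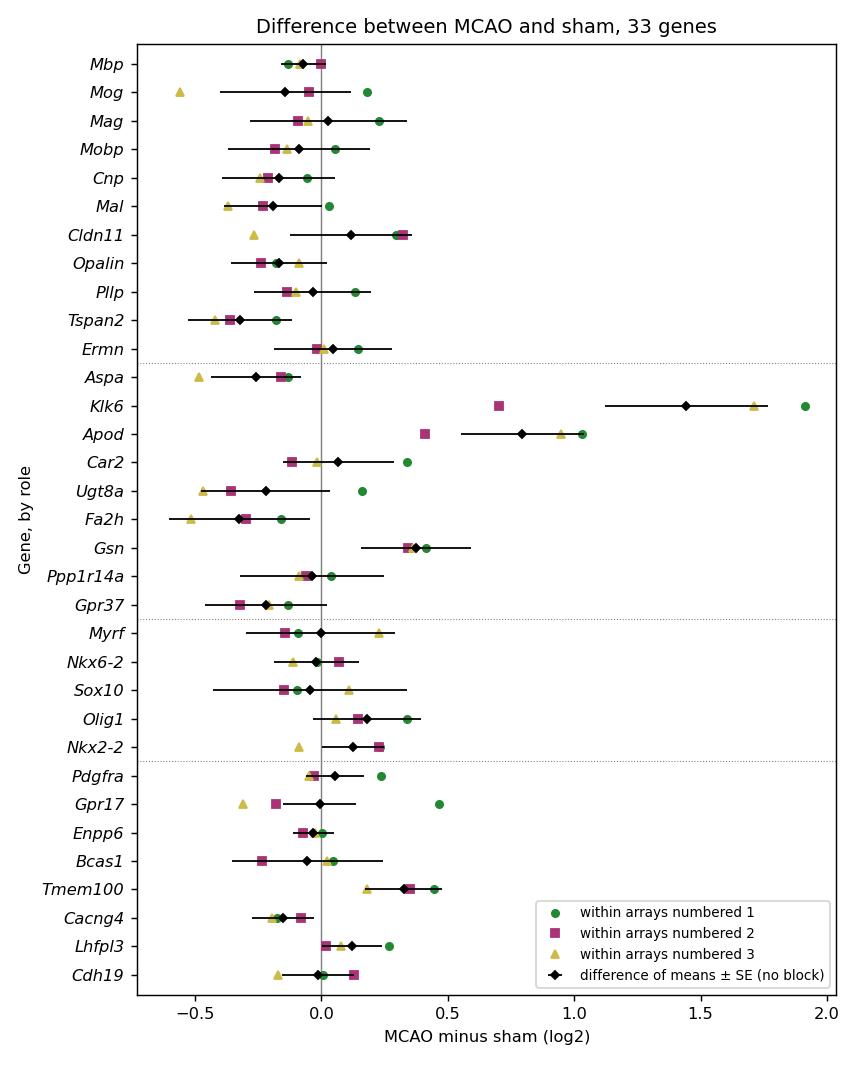
MCAO minus sham on the log2 scale for the 33 genes by role: black diamonds are differences of the group means with limma's SE without the block (3 arrays per group), and coloured symbols the differences within each same-numbered pair. Klk6 and Apod lie right of 0 by more than the others, with pair 2 the lowest of the 3, Gsn and Tmem100 lie right of 0 in each pair, and most of the other genes lie within 0.5 of 0.

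The sheath itself is built by the first role group, 11 genes for proteins of the myelin membrane and its cytoskeleton. None passed without the block, beside 1.14% of all genes, and 1 fell with it, beside 1.31%. In MCAO 3 were higher and 8 lower, with a median of −0.09 log2 and a range from −0.32 to 0.12. Mbp, the myelin basic protein gene, whose product holds the cytoplasmic faces of the sheath together, read 13.49, 13.62 and 13.70 log2 on MCAO 1 to 3 and 13.62, 13.62 and 13.79 on sham 1 to 3. The groups overlapped and differed by −0.07 ± 0.09 log2 (SE, n = 3 per group; limma adjusted p = 0.944). Quantile normalization gives a probe set the same value on arrays where it has the same rank, as Mbp did on MCAO 2, sham 1 and sham 2. This probe set lay near the top of the scale: it ranked 13 from the top on MCAO 1. As deposited, its MCAO values were 13.42, 13.71 and 13.77 and its sham values 13.52, 13.66 and 13.90, with a difference of −0.06 log2. The SDs were then 0.187 in MCAO and 0.195 in sham, beside 0.107 and 0.0952 after normalization. Of its 8 probe sets this one differed least, and their mean differed by −0.17 log2 without the block.

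Mog, which encodes a glycoprotein of the sheath's outer face, read 8.82, 8.08 and 8.52 on MCAO 1 to 3 and 8.64, 8.13 and 9.08 on sham 1 to 3. The array numbered 2 was the lowest in both groups. Mag encodes the adhesion protein that faces the axon; it read 9.36, 9.31 and 10.15 in MCAO and 9.13, 9.40 and 10.20 in sham. For Mag the arrays numbered 3 stood above the other 4, and the group means differed by 0.03 ± 0.31 log2 (SE, n = 3 per group). Cnp, the cyclic nucleotide phosphodiesterase of non-compact myelin, read 12.64, 12.41 and 13.08 in MCAO and 12.69, 12.62 and 13.32 in sham. It was lower in MCAO within each pair, with a mean difference of −0.17 log2 that did not pass with the block (adjusted p = 0.225 by limma). Mobp, a basic protein of compact myelin, differed by −0.09, the raft proteolipid gene Mal by −0.19, the tight-junction gene Cldn11 by 0.12 and the membrane glycoprotein gene Opalin by −0.17. Pllp, which encodes plasmolipin, differed by −0.03 and Ermn, a cytoskeletal gene of late oligodendrocytes, by 0.05. None of these 6 passed with the block, at limma adjusted p between 0.213 for Opalin and 0.879 for Pllp.

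Tspan2, a tetraspanin of the oligodendrocyte surface, read 10.14, 9.60 and 10.20 on MCAO 1 to 3 and 10.32, 9.96 and 10.63 on sham 1 to 3. The groups overlapped, but each MCAO array was below its same-numbered sham array, with differences of −0.18, −0.36 and −0.42 log2. The difference of means was −0.32 ± 0.21 log2 without the block (SE, n = 3 per group; limma adjusted p = 0.819). It was −0.13 without MCAO 2, −0.16 without sham 3 and −0.49 without sham 2. With the block the adjusted p was 0.0294, and it was 0.157 when the pair numbered 3 was left out. Its other 2 probe sets read −0.20 and −0.16, and the mean of the 3 gave an adjusted p of 0.0772 by limma with the block.

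The second role group, enzymes, carriers and other genes of mature oligodendrocytes, held the widest differences. Of its 9 measured genes, 0 passed without the block, beside 1.14% of all genes. With the block 3 rose, beside 4.83% of all genes, and 1 fell, beside 1.31%. Klk6 read 9.56, 8.43 and 9.78 log2 on MCAO 1 to 3 and 7.65, 7.72 and 8.07 on sham 1 to 3. All 3 MCAO arrays stood above the sham arrays, and MCAO 2 was the lowest of them. The means were 9.26 ± 0.73 in MCAO and 7.81 ± 0.22 in sham (SD, n = 3), a difference of 1.44 ± 0.32 log2 (SE; limma adjusted p = 0.118). Within the pairs the differences were 1.91, 0.70 and 1.71, and the block gave an adjusted p of 8.31e-04 by limma. Klk6 also passed without the block when MCAO 2, its lowest MCAO array, was left out (limma adjusted p = 0.0104). Leaving out any other single array gave no call (limma adjusted p from 0.205 to 0.335). Klk6 did not pass with the block under robust variance (0.0608).

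Apod read 12.46, 11.45 and 12.25 log2 on MCAO 1 to 3 and 11.43, 11.04 and 11.30 on sham 1 to 3. The lowest MCAO array, number 2, lay just above the highest sham array, number 1, and number 2 was the lowest in both groups. The means were 12.05 ± 0.53 and 11.26 ± 0.20 (SD, n = 3), a difference of 0.80 ± 0.25 log2 (SE; limma adjusted p = 0.295, and 0.00159 with the block). Within the pairs the differences were 1.03, 0.41 and 0.95. Its second probe set read 1.21 higher in MCAO. As for Klk6, leaving out MCAO 2, the lowest MCAO array, gave a call without the block (limma adjusted p = 0.0284). Leaving out any other single array gave none (limma adjusted p from 0.385 to 0.679). Apod is also expressed by fibroblasts and vessel-wall cells: of 8 markers of those cells 0 passed with or without the block, and their mean ran from 7.52 to 7.67 log2 over the MCAO arrays and from 7.46 to 7.56 over the sham arrays. That mean joins pericyte and smooth muscle genes with fibroblast genes. Of the latter, the collagen gene Col1a2 read 7.03, 7.05 and 7.35 in MCAO and 6.71, 6.93 and 6.84 in sham, and the decorin gene Dcn 7.21, 7.22 and 7.46 in MCAO and 7.03, 7.14 and 7.13 in sham. All MCAO values of these 2 genes lay above sham, by 0.32 log2 for Col1a2 (limma adjusted p = 0.374, and 0.0503 with the block) and 0.19 for Dcn (0.635 and 0.173). Col1a1 differed by 0.00320 and Lum by 0.0866, and their groups overlapped. The part of these cells in the Apod difference was not tested. The 11 reactive astrocyte markers and 15 phagocyte markers described further on were also higher in MCAO on these arrays. Their part in the Klk6 and Apod differences was not tested either, and bulk RNA does not show which cells held these transcripts.

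Because Klk6 and Apod were the members with the clearest differences, reference sequence before an annotated start of each is shown, from RefSeq (GRCm38.p6), with matches to the SOX motif letters in capitals. Klk6 has 2 annotated starts. The stretch shown precedes the first and is 144 bases long, since it stops where the annotated gene begins; the window before the other lies within the gene, is not shown and held no match. The Apod stretch is the full 250 bases.
Klk6 (chr7:43824294-43824437, plus strand): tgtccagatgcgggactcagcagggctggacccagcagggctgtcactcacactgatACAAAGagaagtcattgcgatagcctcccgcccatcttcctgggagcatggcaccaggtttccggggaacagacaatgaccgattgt
Apod (chr16:31314809-31315058, minus strand): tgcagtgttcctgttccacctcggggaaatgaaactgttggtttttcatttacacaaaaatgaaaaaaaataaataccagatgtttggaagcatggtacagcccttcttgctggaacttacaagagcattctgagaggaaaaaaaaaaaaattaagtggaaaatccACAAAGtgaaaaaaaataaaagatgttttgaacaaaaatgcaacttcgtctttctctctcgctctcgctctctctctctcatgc
The letters searched, on both strands, were TTCNNNGAA for STAT factors, TGANTCA for AP-1, ACAAAG for SOX factors and the NF-kB motif. Each stretch shown held 1 match to ACAAAG and none to the other 3. Among 32851 windows of 250 bases before annotated starts, 16.5% held ACAAAG. Of the 29 windows found for 23 of the 35 genes, 8 did, for 7 genes: Mag, Mobp, Cnp, Opalin, Tspan2, Klk6 and Apod. TTCNNNGAA stood in 3 of the 29, beside 7.02% of all windows, and TGANTCA and the NF-kB motif in 0, beside 6.75% and 1.41%. A match here is a run of letters and not a site shown to be bound.

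Gsn read 10.54, 9.93 and 10.58 log2 on MCAO 1 to 3 and 10.12, 9.58 and 10.21 on sham 1 to 3. The groups overlapped because number 2 was low in both, yet the 3 pair differences were alike at 0.41, 0.34 and 0.36. The difference of 0.37 ± 0.22 log2 (SE, n = 3 per group) had a limma adjusted p of 0.767 without the block and 0.00819 with it. It was 0.18 without sham 2 and 0.58 without MCAO 2. It did not pass with the block when the pair numbered 1 was left out (0.0662). The probe set used for Gsn ends in _x_at and may bind related transcripts. Of the other 5 probe sets for Gsn, 4 were also higher in MCAO, by up to 0.59 log2, and 1 read −0.04. Gelsolin is made by many cell types, and the 15 phagocyte markers and 11 reactive astrocyte markers described further on were higher on the same arrays; their part in the Gsn difference was not tested.

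Fa2h, whose product hydroxylates fatty acids for myelin galactolipids, read 8.85, 8.85 and 9.49 log2 in MCAO and 9.01, 9.15 and 10.003 in sham. Each MCAO array was lower than its same-numbered sham array, while the arrays numbered 3 were the highest of both groups. The difference was −0.33 ± 0.28 log2 (SE, n = 3 per group), with a limma adjusted p of 0.903 without the block and 0.0413 with it. The difference was −0.0178 without sham 3, −0.54 without MCAO 3 and −0.51 without sham 1. With the pair numbered 3 left out the block gave an adjusted p of 0.232. Ugt8a, the galactosyltransferase that makes the galactolipid galactosylceramide, read −0.22 with an adjusted p of 0.310 in the block fit by limma, and passed there without the pair numbered 1 (0.0212). Aspa, which releases acetate for lipid synthesis from N-acetylaspartate, was lower in MCAO in all 3 pairs, with a mean of −0.26 log2 (0.109 with the block, and 0.0271 without the pair numbered 2). The fits without a pair, in which Ugt8a and Aspa passed, rested on fewer arrays and leaned more on the spread of all genes. Gpr37, a receptor that restrains oligodendrocyte differentiation, was lower in all 3 pairs, with a mean of −0.22 (0.110 with the block). The carbonic anhydrase gene Car2 differed by 0.07 and the phosphatase inhibitor gene Ppp1r14a by −0.04, with signs that varied among the pairs.

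**Figure D3:**
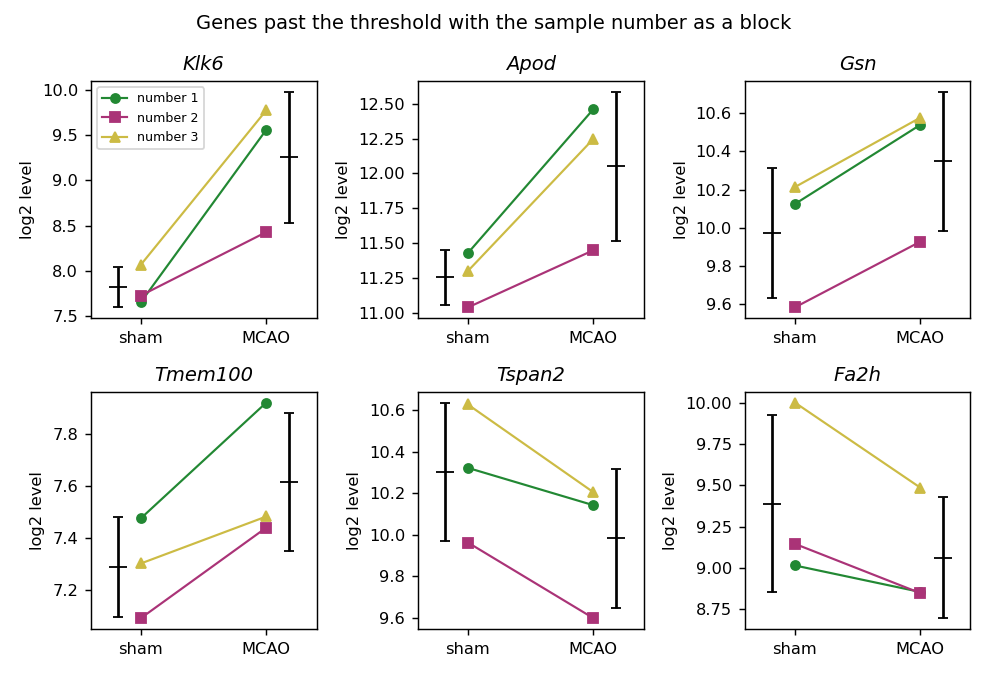
Log2 level in sham and MCAO for the 6 genes that passed with the sample number as a block; each line joins same-numbered arrays, and the bars beside them show the group mean ± SD (n = 3). Klk6 and Apod separate the groups, while for Gsn, Tmem100, Tspan2 and Fa2h the lines run the same way and the groups overlap.

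None of the 5 transcription factor genes passed with or without the block, beside 6.14% and 1.14% of all genes. Their median difference was −0.00276 log2. Sox10, the factor that directs the oligodendrocyte fate and its myelin genes, read 8.25, 8.83 and 9.63 log2 on MCAO 1 to 3 and 8.35, 8.97 and 9.52 on sham 1 to 3. The arrays of each number lay close together and the numbers lay more than 1 log2 apart, from number 1 to number 3, so the difference of −0.05 ± 0.38 log2 (SE, n = 3 per group) was smaller than the spread within a group. Myrf, the switch for myelin gene transcription, read 8.49, 8.61 and 9.54 in MCAO and 8.58, 8.76 and 9.31 in sham. It too was lowest on number 1 and highest on number 3 in both groups. Olig1, a basic helix-loop-helix factor of the lineage, was higher in MCAO in all 3 pairs, by 0.34, 0.14 and 0.06 log2, and did not pass with the block (limma adjusted p = 0.228). Nkx2-2, a factor of differentiating precursors, differed by 0.12 and Nkx6-2, a factor of mature oligodendrocytes, by −0.02.

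Of 8 measured genes of precursors and newly committed cells, 0 passed without the block, beside 1.14% of all genes. With the block 1 rose, beside 4.83% of all genes. The median difference of the 8 was −0.01 log2. Pdgfra, the receptor by which precursors respond to platelet-derived growth factor, read 9.46, 9.06 and 9.15 on MCAO 1 to 3 and 9.22, 9.08 and 9.20 on sham 1 to 3. The groups overlapped and differed by 0.05 ± 0.11 log2 (SE, n = 3 per group; limma adjusted p = 0.977). Gpr17, a receptor of committed cells that have yet to make myelin, read 8.33, 8.07 and 8.08 in MCAO and 7.86, 8.25 and 8.39 in sham. Its pair differences were 0.47, −0.18 and −0.31, so that the first pair ran opposite to the other 2. Bcas1, which marks cells that are starting to make myelin, read 11.70, 10.90 and 11.99 in MCAO and 11.65, 11.13 and 11.96 in sham. The number 2 array was the lowest of both groups and the group difference was −0.06 ± 0.30 log2 (SE, n = 3 per group). Enpp6, a choline phosphodiesterase of newly forming oligodendrocytes, differed by −0.03, and Cdh19, a cadherin gene, by −0.01.

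Tmem100, a membrane protein gene also expressed in vessels, read 7.92, 7.44 and 7.48 log2 on MCAO 1 to 3 and 7.48, 7.09 and 7.30 on sham 1 to 3. MCAO 2 lay below sham 1, so the groups overlapped, and within the pairs MCAO was higher by 0.45, 0.35 and 0.18. The difference was 0.33 ± 0.15 log2 (SE, n = 3 per group), with a limma adjusted p of 0.635 without the block and 0.0290 with it. The difference was 0.17 without MCAO 1. In the block fit the adjusted p was 0.276 without the pair numbered 1, 0.0506 on the values as deposited and 0.124 when its 2 probe sets were averaged. Of 7 endothelial markers, 5 were higher in MCAO and 0 passed with or without the block; their mean ran from 7.48 to 7.71 log2 over the MCAO arrays and from 7.49 to 7.56 over sham. Their part in the Tmem100 difference was not tested. Cacng4, an auxiliary subunit of AMPA receptors, was lower in all 3 pairs, with a mean of −0.15, and Lhfpl3, a precursor marker, higher in all 3, with a mean of 0.12. Neither passed with the block (limma adjusted p = 0.264 and 0.440).

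For most of these genes the spread lay between sample numbers and not between surgery groups. The sum of squares of each gene's 6 values was divided into a part between MCAO and sham, a part between the 3 sample numbers and a remainder. With more sample numbers than groups, the part between numbers has more degrees of freedom. It is the larger on average where neither has an effect, for all genes as for these. The part between numbers had a median of 81.0% over the 33 genes, beside 52.0% over all genes, and the part between MCAO and sham 7.53%, beside 13.5%. The part between numbers exceeded that between groups in 31 of the 33, and in 73.5% of all genes; the other two were Klk6 and Apod. It was above 90% in 10 of the 33 and in 10.5% of all genes, and reached 99.3% for Ppp1r14a and 98.7% for Sox10. Gpr17 was the exception in the other direction, with 10.2% between numbers and 0.0427% between groups.

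**Figure D4:**
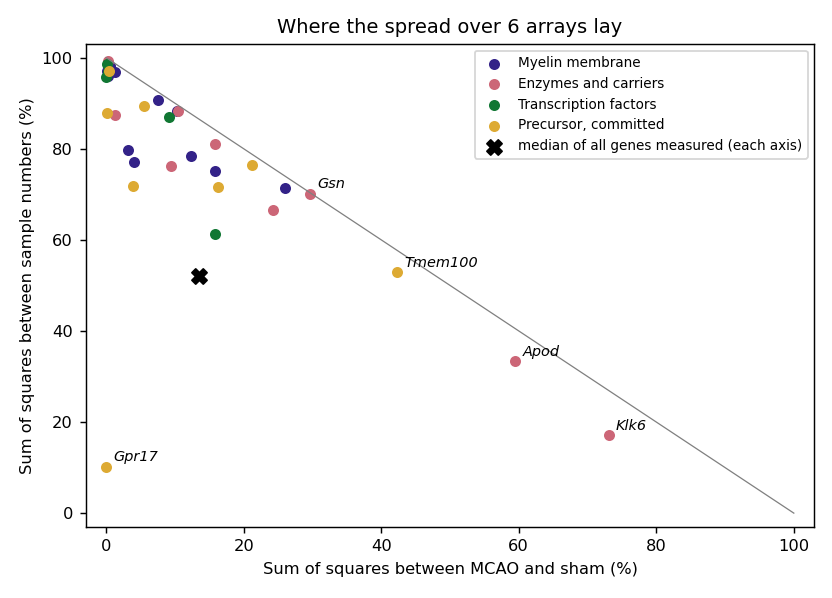
For each of the 33 genes (points, coloured by role), the percent of the sum of squares over 6 arrays that lay between MCAO and sham (horizontal) and between sample numbers (vertical); the cross gives the medians of all 18193 genes, and the line is where the remainder is 0. Most genes lie at the upper left, above the cross, and Klk6 and Apod at the lower right.

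The direction of this spread differed among the role groups. In 22 of the 33 genes the array numbered 3 was the highest in both MCAO and sham, as it was in 15.6% of all genes, and in 21 the array numbered 2 was the lowest in both, as in 12.4% of all genes. Of the 11 myelin membrane genes, 9 were highest on number 3 and 9 lowest on number 2 in both groups. Of the 5 transcription factor genes, 4 were highest on number 3, but 3 of them, Sox10, Myrf and Olig1, were lowest on number 1, as were 26.5% of all genes. Of the 8 precursor and committed genes, 3 were highest on number 3 and 4 on number 1: Pdgfra, Tmem100, Lhfpl3 and Cdh19. Over the 11 myelin membrane genes the mean level was 10.49, 10.10 and 10.68 log2 on MCAO 1 to 3 and 10.45, 10.21 and 10.89 on sham 1 to 3. The gap between numbers 2 and 3 thus appeared in both groups.

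Markers of other cells moved with the sample number too. Of the 8 ependymal markers 6, and of the 9 neuroblast markers 6, were highest on number 2 in both groups, as were 14.7% of all genes. The ependymal markers averaged 8.02, 8.51 and 8.09 log2 on MCAO 1 to 3 and 7.86, 8.41 and 7.77 on sham 1 to 3, while the neuroblast markers averaged 8.82, 9.19 and 8.88 and 8.78, 8.99 and 8.71. The arrays on which the myelin membrane genes were lowest were thus those on which these markers were highest. Whether tissue makeup, RNA or array handling lay behind it was not tested.

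In the pairs, the differences of the lineage genes were not of one sign. Within the arrays numbered 1, 22 of the 33 were higher in MCAO, and within those numbered 2 and 3, 10 in each. Of all 18193 genes, 9102, 7820 and 10020 were higher in MCAO within numbers 1, 2 and 3. The medians were 0.05, −0.08 and −0.09 log2, beside 1.70e-04, −0.03 and 0.02 for all genes. Among myelin membrane genes 7 of 11 were higher in MCAO on number 1 and 1 of 11 on each of the others.

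Probe sets not used above gave another reading of the same genes on the same arrays. Of the 33 genes, 17 had several probe sets with 35 others among them, of which 31 had the same sign as the one used. All 8 probe sets of Mbp were lower in MCAO, from −0.40 to −0.07 log2, as were all 5 of Mobp, from −0.45 to −0.06, and all 3 of Cnp. The Mobp probe set at −0.45 had an unadjusted p of 7.04e-05 by limma with the block, in a fit over probe sets. The rest of Mobp, with the probe set used among them, ran from 0.0895 to 0.406 there. The 4 that differed in sign were those of Bcas1, Ermn, Gsn and Sox10, 1 for each gene, and their values lay between −0.04 and 0.13. Of the probe sets used, those of Cnp and Gsn end in _x_at.

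Of 27 other measured genes of mature oligodendrocytes, 0 passed without the block, beside 1.14% of all genes, and 2 fell with it, beside 1.31%. Among the 27, 6 were higher and 21 lower in MCAO, with a median of −0.10 log2. Within all 3 pairs 12 of them were lower in MCAO and 2 higher, beside 19.8% and 20.0% of all genes. At an unadjusted p under 0.05 there was 1, Omg, which encodes a myelin glycoprotein that inhibits axon growth. Omg read 9.91, 9.66 and 9.74 on MCAO 1 to 3 and 10.11, 10.05 and 9.97 on sham 1 to 3. All 3 MCAO values lay below sham, with a difference of −0.27 ± 0.09 log2 (SE, n = 3 per group; limma adjusted p = 0.342, and 0.0542 with the block). The genes that fell with the block were Tppp, a tubulin-polymerising protein gene, by 0.31 log2 (adjusted p = 0.0417 by limma) and Efhd1, a calcium-binding protein gene, by 0.39 (0.0110). The connexin gene Gjc3 differed by −0.14. On the values as deposited the block called 1 of the 52 other lineage genes.

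Of 25 other genes of precursors and differentiating cells, 0 passed with or without the block, beside 6.14% and 1.14% of all genes. In MCAO 9 were higher and 16 lower, with a median of −0.03. Ptprz1, a receptor phosphatase that astrocytes also express, had the smallest p. It read 10.41, 10.55 and 10.40 on MCAO 1 to 3 and 10.20, 10.25 and 10.16 on sham 1 to 3. The MCAO values lay above sham by 0.25 ± 0.08 log2 (SE, n = 3 per group; limma adjusted p = 0.281, and 0.0573 with the block). The small GTPase gene Rras2 and the matrix protein gene Emid1 came next by p, at 0.14 and −0.10 log2. The part of the spread between numbers had a median of 86.5% over the 27 mature genes and 54.2% over these 25.

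The mean levels of reactive astrocyte markers and of phagocyte markers stood apart between the groups on the same arrays. Of 11 reactive astrocyte markers 7 rose without the block, beside 1.12% of all genes. Their means ran from 8.43 to 8.89 log2 over the MCAO arrays and from 6.87 to 7.22 over sham. Of 15 phagocyte markers 9 rose, with means from 9.01 to 9.42 and from 8.18 to 8.29. The means of the 33 lineage genes ran from 9.12 to 9.65 in MCAO and from 9.15 to 9.69 in sham, so the groups overlapped. Of 10 astrocyte markers of healthy tissue 2 rose. Of 7 striatal neuron markers and 8 choroid plexus markers 0 passed without the block; all 7 of the former were lower in MCAO (median −0.20), and 1, the dopamine receptor gene Drd1, fell with the block, by 0.34 (limma adjusted p = 0.0184). Of 4 measured Schwann cell markers, the genes of peripheral myelin, 1 passed with the block: Egr2, also an immediate early gene of neurons, fell by 0.76 (limma adjusted p = 0.00348).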

How the data were processed

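The 6 arrays held total RNA, labelled with biotin, from the SVZ of 3 MCAO and 3 sham samples. The authors deposited log2 values per probe set; how background, summary and normalization were done is not given in the sources used here, and the log2 scale is read from the values. Of 45101 probe sets 64 are controls. The annotation table gave 34945 of the others 1 symbol. Quantile normalization was added, since the arrays' 90th percentiles as deposited differed (8.85 to 9.06). The probe set with the highest mean over 6 arrays stood for a gene. MCAO and sham were compared with lmFit and eBayes of limma 3.58.1 (R 4.3.3, 2-sided, Benjamini-Hochberg over 18193 genes), a procedure tested on simulated data. There, the fit without a block missed all of the smallest changes and part of the next larger ones. In the fit with a block, the share of false calls lay above the threshold. This was a single run, and the threshold bounds that share only on average. The simulated spread between numbers was the same in size for all genes and was drawn for each gene separately. In the real data the SD within groups had a median of 0.36 log2 over the 33 genes, beside 0.12 over all genes. Nothing says that each array held a separate animal, so p-values measure only how these samples vary, and part of that may be technical. An exact permutation test of 3 against 3 cannot go below 0.1. The number of arrays limits the precision.

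Both groups are numbered 1 to 3 in the labels. Deviations from the group means correlated at 0.77, 0.44 and 0.48 between same-numbered arrays, so the numbers were taken to pair them; this pairing comes from the data. The main fit had no block, and the fit with the sample number as a block was an alternative, with others on normalization, probe sets, dim genes, variance and single arrays. The members and gene lists were chosen with earlier results of these data known. Any measured member may be named, and of the other lists the smallest p-values and, for lineage genes, those past the threshold.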

Additional observations from a re-analysis of the deposited data

How the results depend on the processing

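The count of genes passing over the whole array was 207 and ran from 43 to 210 when single arrays were left out: leaving out sham 3 gave 43, MCAO 3 gave 98, sham 1 gave 125 and sham 2 gave 131. With the sample number as a replicate block it was 1117, or 816 if quantile normalization was left out as well; the cause was not tested. For the 33 genes the counts were 6 and 3 in these block fits, and 0 to 2 without single arrays, the 2 being without MCAO 2; for the 52 other lineage genes they were 2 and 1. The block fit called 4 rises; without single pairs it called 2 to 4, the 2 without the pair numbered 1 being Klk6 and Apod. It called 2 falls; the count was 0 on the values as deposited, 1 (Fa2h) with the mean of probe sets, 0 with a common median as the only scaling, and 0 to 3 without single pairs. It was 0 without the pair numbered 3, and the third fall was Ugt8a without the pair numbered 1 and Aspa without the pair numbered 2. Alternatives within the block fit, other than the deposited values, were chosen after seeing the data.

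Over all alternatives, 428 values of single genes kept sign and side of the threshold, 11 passed it and 52 turned sign. The sign turned for 21 of the 33 genes, whose differences were at most 0.221 log2 in size, and 12 kept it throughout. On the values as deposited, with or without the block, Myrf read 0.0096 and Gpr17 0.0303. Without both arrays numbered 1, Mag read −0.0734, Ermn −0.00301, Car2 −0.0678, Myrf 0.0424 and Pdgfra −0.0395. When single arrays were left out, differences ranged in log2 for Mog from −0.39 to 0.0896, Mag from −0.24 to 0.34, Mobp from −0.33 to 0.20, Cnp from −0.35 to 0.0517, Mal from −0.31 to 0.017, Cldn11 from −0.11 to 0.40, Opalin from −0.34 to 0.0021, Pllp from −0.23 to 0.19, Ermn from −0.16 to 0.28, Car2 from −0.0726 to 0.30, Ugt8a from −0.40 to 0.0295, Ppp1r14a from −0.29 to 0.24, Myrf from −0.33 to 0.21, Nkx6-2 from −0.14 to 0.15, Sox10 from −0.41 to 0.28, Pdgfra from −0.0669 to 0.14, Gpr17 from −0.16 to 0.10, Enpp6 from −0.0779 to 0.0109, Bcas1 from −0.29 to 0.26, Lhfpl3 from −0.00494 to 0.20 and Cdh19 from −0.13 to 0.0973. For the genes that kept their sign the ranges were Mbp from −0.12 to −0.0144, Tspan2 from −0.49 to −0.13, Aspa from −0.40 to −0.0584, Klk6 from 1.18 to 1.86, Apod from 0.59 to 1.10, Fa2h from −0.54 to −0.0178, Gsn from 0.18 to 0.58, Gpr37 from −0.44 to −0.0114, Olig1 from 0.00682 to 0.40, Nkx2-2 from 0.0189 to 0.25, Tmem100 from 0.17 to 0.42 and Cacng4 from −0.24 to −0.0381. The 21 signs that turned were not settled at 3 arrays per group, and brightness over background was not given in the sources used here.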
